A study of Mus musculus with 6 samples.

Results

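The genes described here encode 8 high mobility group (HMG) proteins, small abundant proteins that bind chromatin with little sequence preference and shape its architecture: Hmgn1, Hmgn2, Hmgn3, Hmgn5, Hmga1, Hmga2, Hmgb1 and Hmgb2, out of 21883 protein-coding mouse genes of the RefSeq table. Accessible DNA was mapped by ATAC-seq, where Tn5 transposase cuts into open chromatin, in Lap2alpha knockout dermal fibroblasts (KO, 3 libraries) and wildtype dermal fibroblasts (WT, 3 libraries) of the mouse. Cells of both genotypes were grown in DMEM with fetal calf serum, penicillin and streptomycin. The labels number the libraries of each genotype without naming animals, clones or separate cultures, and give no age, strain or way in which the knockout was made. Lap2alpha is a splice form of lamina-associated polypeptide 2, encoded by Tmpo, that lies in the nucleoplasm and binds A-type lamins. The study asked how its loss affects accessible chromatin.

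For each gene, the peaks taken were those whose summit lay in the gene span of build GRCm38 or within 50 kb of either end. This gave 87 of 98072 KO peaks and 112 of 106132 WT peaks. Peaks of KO and WT with at least 1 bp in common were called shared, and the others KO-only or WT-only. The strength of a peak is given as its percentile, which is the rank of its deposited signal within its own list, where 100 is the strongest peak. The deposited signal grows with peak length and is not scaled between the lists, so a percentile places a peak in its own list and does not measure a change between genotypes. Each genotype had 1 peak list for its 3 libraries together. There was therefore no replicate spread and no test between KO and WT could be made. Depth is unknown, and a KO-only or WT-only peak cannot be told apart from a peak that narrowly missed the other list's threshold. In bulk chromatin, a region open in fewer cells and a region less open in every cell cannot be told apart either.

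HMGN proteins bind the nucleosome core itself and compete with linker histone H1, which loosens chromatin. HMGA proteins insert AT-hooks into the minor groove of AT-rich DNA, and HMGB proteins bend DNA with their HMG boxes. HMGA2 is abundant in embryonic mesenchyme, from which fibroblasts derive, and HMGN5 is known to bind the Lap2alpha protein. The 8 genes lie on 8 chromosomes, so their windows share no peak.

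All 8 genes were called open in both genotypes, meaning that a peak overlapped the 1 kb around an annotated start site. For Hmgn3, which had no start site in the promoter table, either gene end was used. The same was done for all genes without one, 4392 of the 21883 protein-coding genes. Over all protein-coding genes, 56.1% were open in KO and 57.0% in WT, with 55.0% open in both lists, 1.08% in KO only, 2.01% in WT only and 41.9% in neither. RefSeq promoters, from 250 bases before to 50 after the start site in build GRCm38.p6, were found for 7 of the 8 genes, and every one of them lay wholly inside a KO peak and wholly inside a WT peak. The promoters of 5 genes are shown, chosen for the features named below. They read 5′ to 3′ on the strand of the gene, with each CCAAT box in capitals, written CCAAT or, on the other strand, ATTGG. Hmgn2 and Hmgn5 have their KO and WT summits on the same base of the printed sequence, Hmgb1 and Hmgb2 are rich in CCAAT boxes, and Hmga2 has the start site of the window where KO and WT differed most.
Hmgn2, chr4:133967942-133968241, minus strand: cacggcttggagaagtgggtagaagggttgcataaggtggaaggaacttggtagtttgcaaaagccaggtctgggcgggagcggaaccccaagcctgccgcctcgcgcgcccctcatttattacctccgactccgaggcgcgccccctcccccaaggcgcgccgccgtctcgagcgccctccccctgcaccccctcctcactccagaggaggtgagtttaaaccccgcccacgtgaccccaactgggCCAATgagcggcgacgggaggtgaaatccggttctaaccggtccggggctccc
Hmgn5, chrX:109013331-109013630, minus strand: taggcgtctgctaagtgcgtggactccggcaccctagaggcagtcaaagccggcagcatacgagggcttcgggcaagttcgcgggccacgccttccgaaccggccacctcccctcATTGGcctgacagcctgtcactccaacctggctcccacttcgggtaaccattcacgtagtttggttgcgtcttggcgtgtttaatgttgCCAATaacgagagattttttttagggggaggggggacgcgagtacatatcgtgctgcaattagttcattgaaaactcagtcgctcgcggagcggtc
Hmga2, chr10:120476420-120476719, minus strand: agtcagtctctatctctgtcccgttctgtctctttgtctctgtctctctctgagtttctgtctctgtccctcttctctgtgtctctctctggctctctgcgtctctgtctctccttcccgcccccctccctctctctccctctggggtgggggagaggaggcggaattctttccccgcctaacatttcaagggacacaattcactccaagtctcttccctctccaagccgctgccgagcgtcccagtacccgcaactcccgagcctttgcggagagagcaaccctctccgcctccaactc
Hmgb1, chr5:149053008-149053307, minus strand: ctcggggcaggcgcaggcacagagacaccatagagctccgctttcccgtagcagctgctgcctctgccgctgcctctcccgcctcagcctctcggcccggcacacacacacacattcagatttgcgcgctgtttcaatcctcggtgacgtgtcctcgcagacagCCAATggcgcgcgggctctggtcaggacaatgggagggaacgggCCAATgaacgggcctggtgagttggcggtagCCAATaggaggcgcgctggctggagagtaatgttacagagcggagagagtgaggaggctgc
Hmgb2, chr8:57511593-57511892, plus strand: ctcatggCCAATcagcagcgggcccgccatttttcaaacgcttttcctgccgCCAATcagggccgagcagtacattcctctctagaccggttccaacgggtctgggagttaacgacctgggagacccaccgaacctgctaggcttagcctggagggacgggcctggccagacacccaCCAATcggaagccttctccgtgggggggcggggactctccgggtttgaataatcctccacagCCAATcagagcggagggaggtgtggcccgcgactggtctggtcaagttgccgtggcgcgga

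In the Hmgn2 promoter the KO and WT summits were both at base 233 of the sequence, counted from its 5′ end, just before its single CCAAT box at base 248. In Hmgn5 both summits were at base 129, between CCAAT boxes at bases 116 and 205. The Hmgb2 promoter held 4 CCAAT boxes, at bases 8, 53, 178 and 240, with the KO summit at base 120 and the WT summit at base 103. The Hmgb1 promoter held 3, at bases 165, 209 and 240, with the KO summit at base 152 and the WT summit at base 198. Of 21262 RefSeq promoters of the same length, 38.2% held at least 1 CCAAT box on either strand, 3.92% at least 3 and 1.25% at least 4. Hmgn1, not printed, held 2, and Hmga1, Hmga2 and the second Hmgb1 start site held 0. These matches describe the letters of each window only.

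The GC box GGGCGG, searched on both strands, was found 5 times in the Hmgn1 promoter, 4 times in that of Hmga1 and 4 times at the second start site of Hmgb1. Hmgn2 held 2, Hmga2 and Hmgb2 held 1 each, and Hmgn5 and the Hmgb1 promoter shown held 0. At least 1 GC box stood in 46.2% of all promoters. The Hmgb1 promoter shown also held 1 TTTCCCG, the core of an E2F site, and 1 TGACGT, a half-site bound by CREB-type factors, which stood in 4.20% and 8.49% of all promoters. No match of one motif overlapped a match of another in these promoters, and none of them held the TATA box (letters TATAAA), the AP-1 site (letters TGANTCA) or the other E2F cores searched, which were TTTGGCG in one spelling and TTTCGCG in another. The content of G and C ran from 56.7% in Hmgn5 to 77.0% at the second Hmgb1 start site, against a median of 56.3% over all promoters. The ratio of observed to expected CpG ran from 0.544 in Hmga2 to 1.01 at the second Hmgb1 start site, against a median of 0.567, and Hmga2 was the only one below that median.

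Over the 8 windows, KO had fewer peaks than WT and few peaks of its own. Of 87 KO peaks, 5 were KO-only, a share of 5.75% (exact Clopper-Pearson 95% interval 1.89% to 12.9%), against 13.4% of the whole KO list. Of 112 WT peaks, 32 were WT-only, a share of 28.6% (20.4% to 37.9%), against 20.4% of the whole WT list. The KO interval lies below the whole-list share. The WT interval just holds the whole-list share, with a lower bound of 20.433% against 20.4396%. The intervals cover counting only and take peaks as independent, which neighbouring peaks are not. Of the 8 genes, 7 had more WT-only than KO-only peaks and 1, Hmgn1, had more KO-only than WT-only, while over all genes 46.7% had more WT-only, 22.9% more KO-only and 30.4% equal numbers. The KO peak number was 77.7% of the WT number in the windows and 92.4% over the whole lists, and the peaks covered 70.8 kb in KO and 85.6 kb in WT.

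Hmga2 alone supplied 14 of the 32 WT-only peaks. Without its window, an alternative chosen after seeing the data, 5 of 63 KO peaks were KO-only (7.94%) and 18 of 76 WT peaks were WT-only (23.7%, interval 14.7% to 34.8%). The comparison of WT-only peaks with the whole list also depended on weak peaks. Both lists were also limited to their 73554 strongest peaks and matched again. A shared peak could thus become genotype-only where its partner was cut. There, 7 of 59 WT peaks in the windows were WT-only (11.9%, interval 4.91% to 22.9%), against 15.8% of all. The lists were also matched again with a stricter summit threshold, a −log10 p-value of at least 9.73. With it, 4 of 42 WT peaks were WT-only (9.52%, interval 2.66% to 22.6%), against 17.6% of all WT peaks. The 32 WT-only peaks of the full lists had −log10 p-values of at most 8.91. These 4 were therefore shared peaks of the full lists whose KO partner was cut. For WT-only peaks the order thus turned round, but each interval holds the share of the whole list. The KO-only share stayed below that of the whole KO list. It was 4 of 59 (6.78%, interval 1.88% to 16.5%) against 15.3% in the lists of equal length. With the stricter threshold it was 2 of 41 (4.88%, interval 0.596% to 16.5%) against 14.2%. These intervals also hold the whole-list share.

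The genotype-only peaks of the windows were weak, as were those of the whole lists. The 5 KO-only peaks stood at percentiles of 1.69 to 10.8 of the KO list, and the 32 WT-only peaks at 0.0952 to 53.2 of the WT list, with 1 above 50. None of them was among the 13 KO or 15 WT peaks of the windows in the top decile of their list. Their median width was 204 bp for KO-only and 269 bp for WT-only peaks, against 535 bp for shared KO and 585 bp for shared WT peaks. Over the whole lists, genotype-only peaks had median percentiles of 16.5 in KO and 17.8 in WT and median widths of 245 bp in KO and 231 bp in WT. In the top decile, 8 of 9808 KO peaks and 11 of 10614 WT peaks of the whole lists were genotype-only, so their absence there is the general state.

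**Figure D1:**
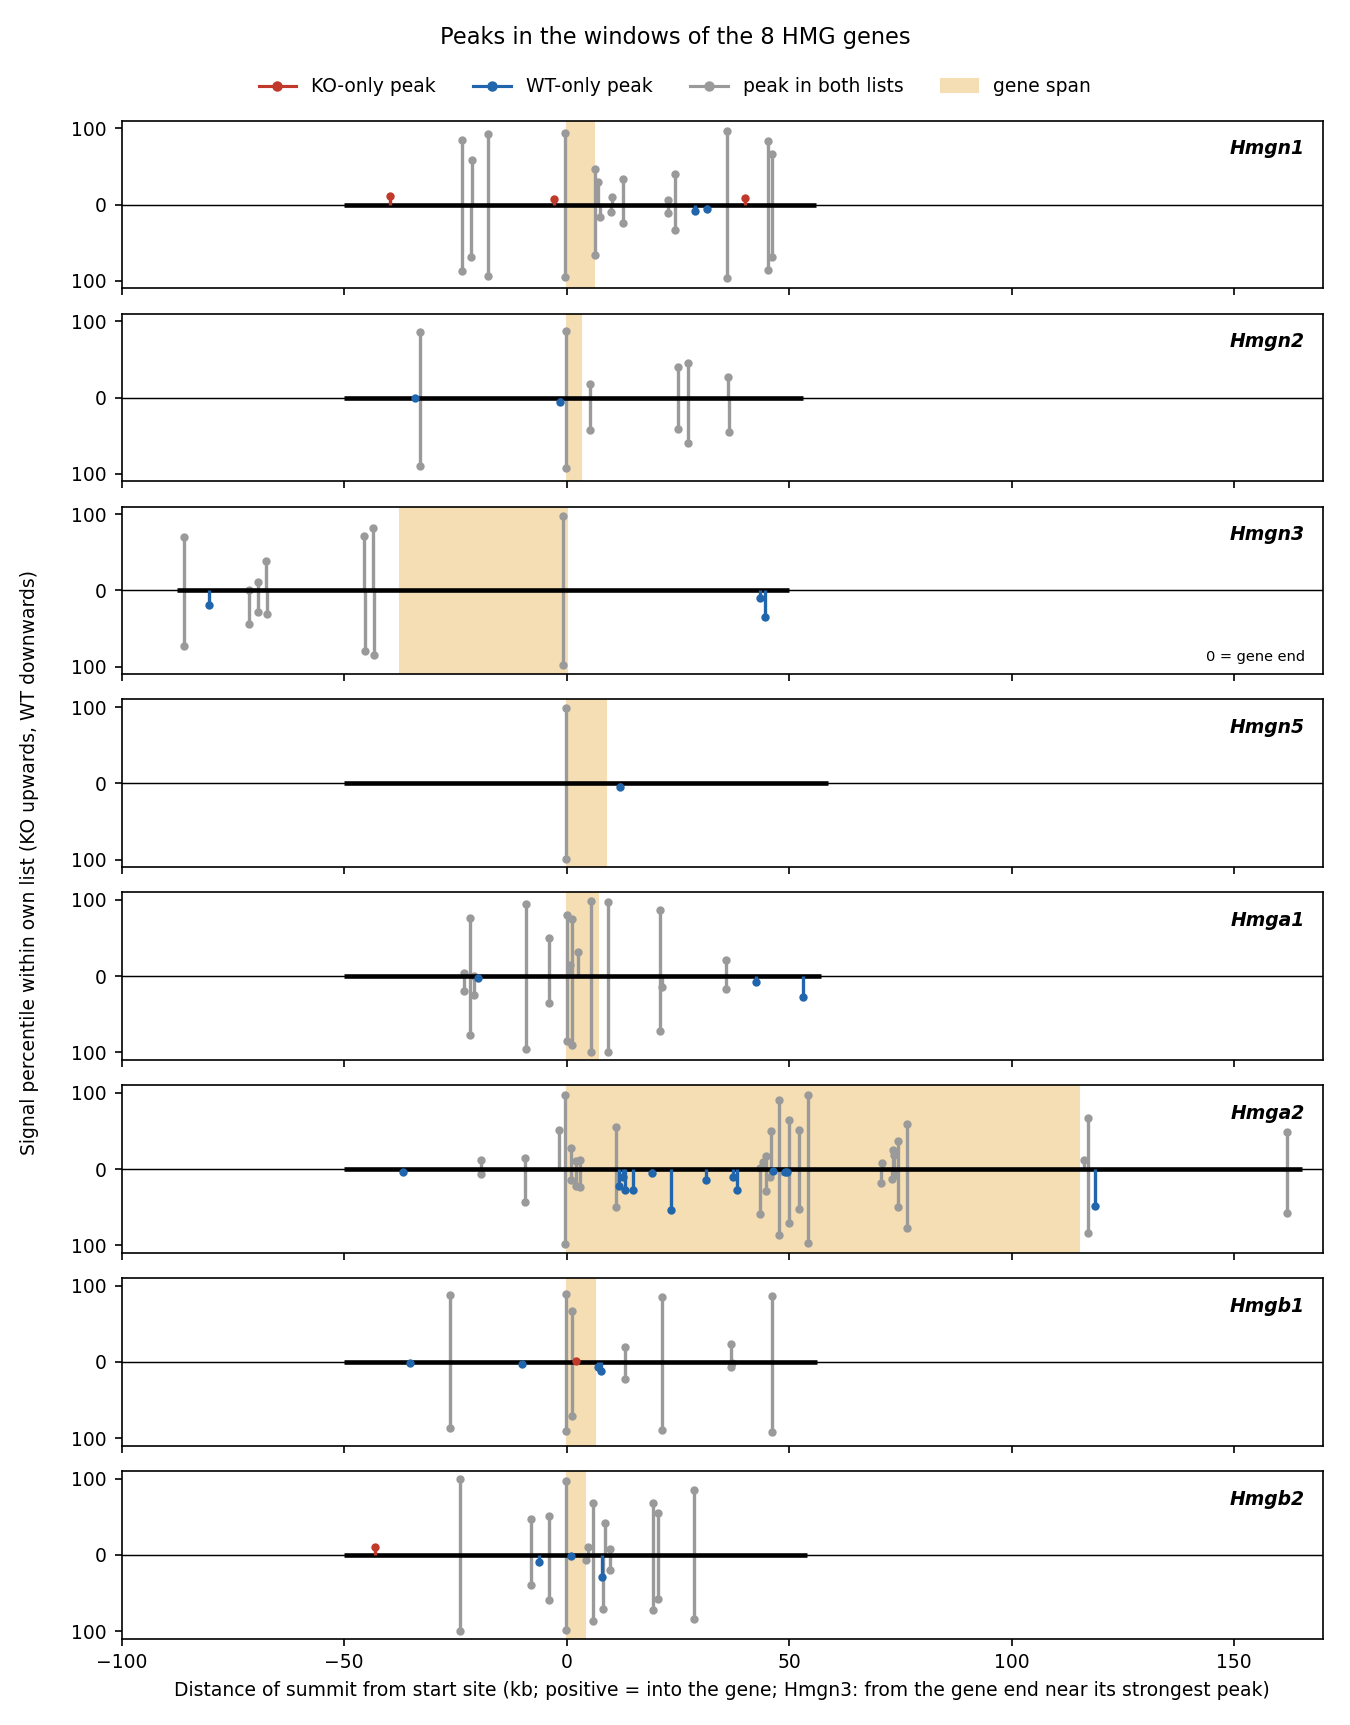
Peaks of the KO list (upwards) and the WT list (downwards) in the windows of the 8 genes, by distance of the summit from the start site in kb and by signal percentile within the own list. For Hmgn3 the distance is taken from the gene end at 83147358, and the gene lies at negative values. Red marks KO-only, blue WT-only and grey shared peaks, and the shaded span is the gene. The tall stems stand in grey on both sides of every axis, and 14 of the 32 blue stems stand in the Hmga2 window.

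**Figure D2:**
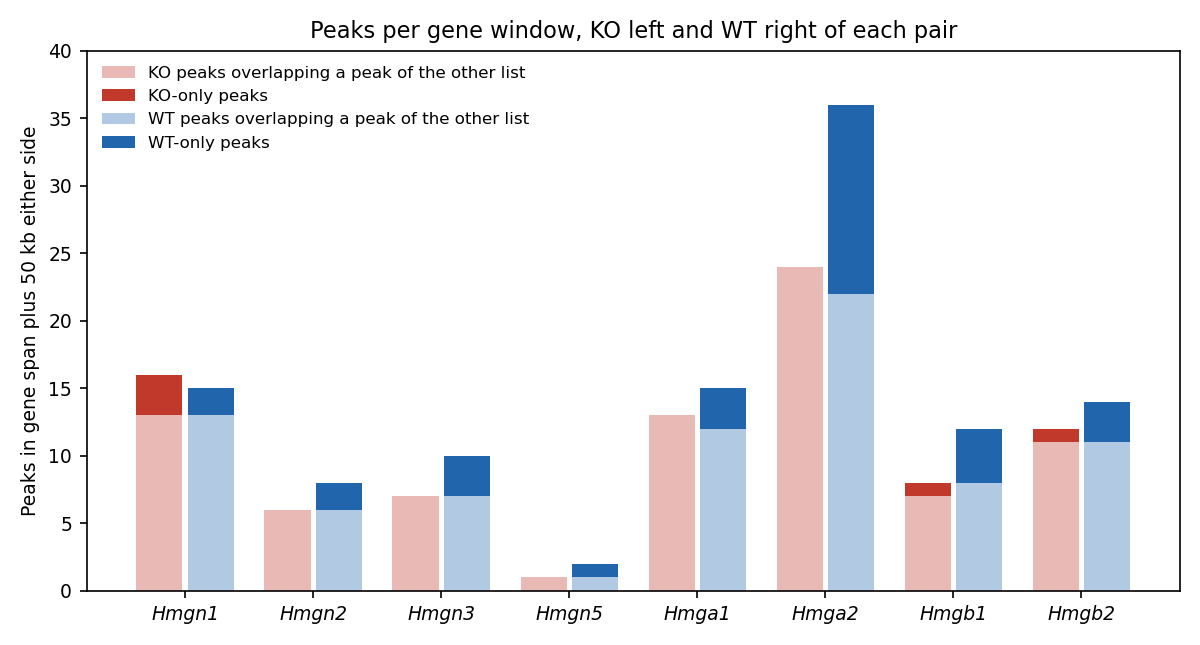
Number of peaks in each window, KO left and WT right of each pair, with the genotype-only peaks in the dark top of each bar. Hmga2 had 24 KO and 36 WT peaks, and Hmgn1 is the gene with more KO than WT peaks.

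Among the HMGN genes, Hmgn1 had 16 KO and 15 WT peaks in its window on chromosome 16 and was the only one of the 8 genes with more KO-only than WT-only peaks, 3 against 2. Its start site at 96127725 lay under a peak from 96126695 to 96128894 in KO (percentile 93.9) and from 96126482 to 96129026 in WT (95.1). The summits were 369 bp upstream of the start site in KO and 370 bp in WT. The strongest peak of the window was shared and lay between genes, from 96091108 to 96092715 in KO (96.3) and from 96091166 to 96092760 in WT (96.4). The third lay at the start site of Get1, a neighbour that encodes part of the machinery for tail-anchored membrane proteins, at percentiles of 92.9 in KO and 93.0 in WT.

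The 3 KO-only peaks of Hmgn1 were scattered. They lay at 96087493 to 96087681 (percentile 8.52), at 96130523 to 96130674, 2.87 kb upstream of the start site (6.82), and at 96167330 to 96167545 inside the gene Lca5l (10.8). The WT-only peaks lay downstream, at 96096095 to 96096397 (5.54) and 96098669 to 96098843 (8.26). All of these were near the bottom of their list. In the 10 Mb block around Hmgn1 the KO peak number was 108.7% of the WT number, so the slight KO excess of the window had the direction of its block.

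Hmgn2, on chromosome 4, had 6 KO and 8 WT peaks, with 0 KO-only and 2 WT-only. Its start-site peak ran from 133967093 to 133968606 in KO (87.3) and from 133966899 to 133968856 in WT (92.5). The summit was at 133968009 in both, 18 bp upstream of the start site, and the peak was 1514 bp wide in KO and 1958 bp in WT. One WT-only peak, from 133969279 to 133969485 (6.13), stood 672 bp from the nearest KO peak, inside the neighbouring gene Dhdds. The other, from 134001859 to 134002000, had a percentile of 0.0952 and was the weakest of the 32. The Dhdds start site carried the second peak of the window, at percentiles of 86.1 in KO and 89.6 in WT, and the third shared peak stood at 45.9 in KO and 59.3 in WT, downstream of Hmgn2.

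Hmgn3, on chromosome 9, had 7 KO and 10 WT peaks, with 0 KO-only and 3 WT-only. Its strongest peak lay just inside the gene end at 83147358, from 83145397 to 83147131 in KO (97.2) and from 83145427 to 83147124 in WT (97.3). The summits were 778 bp from that end in KO and 780 bp in WT. The span of 37417 bp held no other peak in either list. The next shared peaks lay outside it, at percentiles of 82.2 in KO and 84.9 in WT and of 70.9 in KO and 79.7 in WT, both inside Gm2065. The WT-only peaks lay at 83066876 to 83067075 (19.2), 83190740 to 83190923 (9.53) and 83191731 to 83192005 (35.1), and the nearest KO peak to any of them was 4827 bp away.

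Hmgn5, on the X chromosome, had the sparsest window of the 8, with 1 KO and 2 WT peaks in 108.8 kb. Its start-site peak was the widest start-site peak of the 8 genes in both lists, 3018 bp in KO (percentile 98.6) and 2999 bp in WT (98.9). The summit was at 109013502 in both, 122 bp upstream of the start site. The WT-only peak, from 109001343 to 109001526, stood at a percentile of 4.64 and lay 11.9 kb downstream of the start site, past the gene and near 5730416F02Rik. Apart from that peak, the window of this gene held nothing but its start-site peak in both lists.

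The 4 HMGN windows together held 30 KO peaks, 3 of them KO-only, and 35 WT peaks, 8 of them WT-only. As shares these were 10.0% in KO (interval 2.11% to 26.5%) and 22.9% in WT (10.4% to 40.1%), intervals that hold the whole-list shares of 13.4% and 20.4%. All 11 genotype-only peaks stood at or below percentile 35.1.

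Hmga1, on chromosome 17, had 13 KO peaks, none of them KO-only, and 15 WT peaks, 3 of them WT-only. Its start sites at 27556574 and 27556604 lay under a compact peak, from 27556163 to 27557091 in KO (percentile 80.2) and from 27556170 to 27557116 in WT (84.8). Taking for each gene its strongest peak over a start site (for Hmgn3, at its gene end), this was the weakest of the 8 in both lists. The strongest peaks of the window lay elsewhere. One was inside Hmga1, with its summit at 27561999 in both lists, 5.42 kb into the gene, and percentiles of 98.8 in KO and 98.8 in WT. Another spanned the start site of the neighbour AI413582, at 96.9 in KO and 98.9 in WT, and the third lay 9.12 kb upstream of Hmga1 in KO, at 94.3 in KO and 94.9 in WT.

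One accessible stretch of Hmga1 was called in pieces in KO. A single WT peak from 27557279 to 27559669 (percentile 89.8) overlapped 3 KO peaks, from 27557284 to 27557599 (14.4), from 27557717 to 27558706 (75.4) and from 27558826 to 27559474 (32.2). The reverse held 21.0 kb downstream, where 1 KO peak from 27577049 to 27578312 (87.3) overlapped 2 WT peaks. The WT-only peaks of the window were at 27536576 to 27536753 (2.00), at 27598817 to 27599181 (8.25) and at 27609681 to 27609860 (27.7), with the last 2 inside Nudt3, the gene of a diphosphoinositol polyphosphate phosphohydrolase.

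Hmga2, on chromosome 10 from 120361268 to 120476469, differed most between the lists. Its window held 24 KO peaks, none of them KO-only, and 36 WT peaks, 14 of them WT-only, and 12 of these 14 lay inside the gene. The peaks of the window covered 14.6 kb in KO and 22.5 kb in WT. A difference of 14 or more in this direction was found for 36 of the 21883 genes (0.165%). At 115202 bp Hmga2 is the longest of the 8 genes, and its window of 215.2 kb gives more room for peaks than the others. The KO peak number was 66.7% of the WT number in the window, but 106.9% in the 10 Mb block around it.

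The start site of Hmga2 was open in both lists, with the summit at 120476815 in both, 346 bp upstream. The peak ran from 120475647 to 120477909 in KO (percentile 97.1) and from 120475655 to 120478626 in WT (98.7). The WT peak also took in a stretch that formed a separate KO peak, from 120478181 to 120478613 (51.5). Deep in the gene, 54.2 kb from the start site, stood a shared peak from 120421806 to 120423449 in KO (97.5) and from 120421841 to 120423401 in WT (96.9). The third strongest shared peak lay nearby, from 120428068 to 120429791 in KO (90.5) and from 120428393 to 120429821 in WT (86.8). Each of these 3 elements was among the strongest peaks of the window in both lists.

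The difference lay between them. From 120433088 to 120465094, a stretch of 32.0 kb inside Hmga2, the KO list had no peak, while the WT list had a run of 9 WT-only peaks from 120437905 to 120464877. They lay 11.8 kb to 38.4 kb downstream of the start site, at percentiles of 5.69 to 53.2 with a median of 22.0, and their summits had deposited −log10 p-values of 5.97 to 7.59. The strongest of them ran from 120452899 to 120453691 (53.2), the next from 120463205 to 120463512 (27.4) and from 120437905 to 120438569 (26.9). The second strongest WT-only peak of the whole window lay apart from this run, at 120357450 to 120357999 (48.8), past the 3′ end of the gene and 187 bp from a KO peak. Part of the run overlaps Gm51785, another annotated gene.

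The run of 9 was singled out after its values were seen. Over the whole genome, WT-only peaks with no KO or shared peak between them formed 14784 such runs, of which 89 held 9 or more peaks. KO-only peaks formed 10030 runs, of which 21 held 9 or more. Runs of at least 9 peaks packed into no more than 27.0 kb numbered 0 among KO-only peaks and 4 among WT-only peaks, with that of Hmga2 among the 4.

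The WT-only peaks of Hmga2 depended on the summit threshold. Their −log10 p-values were at most 7.59, where the lowest of the whole WT list was 4.94. None of the 14 reached the stricter summit threshold, a −log10 p-value of 9.73, which 8 of the 24 KO peaks and 7 of the 22 shared WT peaks did. With that threshold applied and the lists matched again, the window had 1 KO-only and 1 WT-only peak. With both lists limited to their 73554 strongest peaks it had 3 KO-only and 4 WT-only peaks. Counting only peaks at least 1 kb from any peak of the other genotype, it had 0 KO-only and 9 WT-only peaks.

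**Figure D3:**
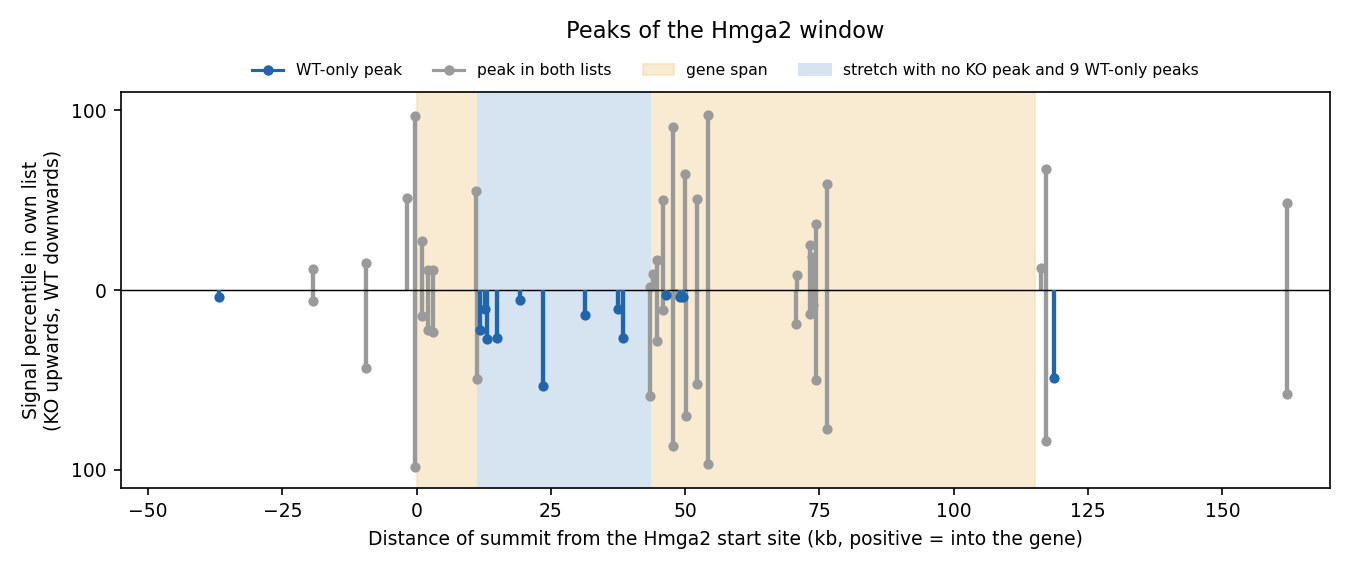
Peaks of the Hmga2 window by distance of the summit from the start site in kb (positive into the gene), with the KO percentile upwards and the WT percentile downwards. Grey peaks are shared and blue peaks WT-only. The blue band marks the 32.0 kb without a KO peak, where 9 WT-only peaks lie at percentiles of 5.69 to 53.2, between shared peaks that reach 97.1 and 97.5 in KO.

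The genes on other chromosomes whose counts of KO-only, WT-only, shared KO and shared WT peaks were nearest to those of Hmga2 were Igf1r, Sufu and Adgrv1. Their Euclidean distances over the 4 counts were 1.41, 2.83 and 3.16 peaks. Igf1r, which encodes the receptor of insulin-like growth factor 1, had 0 KO-only and 13 WT-only peaks. Sufu, an inhibitor of the Hedgehog pathway, had 0 KO-only and 12 WT-only, and Adgrv1, an adhesion receptor gene, had 1 KO-only and 12 WT-only. Igf1r and Sufu were called open at a start site in both lists and Adgrv1 in neither.

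The 2 HMGA windows together held 37 KO peaks, 0 of them KO-only, for which the interval reaches 9.49%, and 51 WT peaks, of which 17 were WT-only (33.3%, interval 20.8% to 47.9%). The whole-list shares of 13.4% in KO and 20.4% in WT lay outside these intervals, which take neighbouring peaks as independent, and 14 of the 17 WT-only peaks were those of Hmga2. Over all genes, 52.5% of windows had no KO-only peak, at a median of 9 KO peaks a window.

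Hmgb1, on chromosome 5, had 8 KO peaks, 1 of them KO-only, and 12 WT peaks, 4 of them WT-only. It encodes a DNA-bending protein that also acts as an alarm signal once outside the cell. Its 2 annotated start sites lay under separate peaks. The upstream site at 149053057 lay under a peak from 149052620 to 149054216 in KO (percentile 88.8) and from 149052424 to 149054115 in WT (90.9). The site at 149051616 lay under a peak from 149051268 to 149052256 in KO (67.1) and from 149051238 to 149052210 in WT (70.4). The upstream promoter was thus the stronger in both lists.

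The KO-only peak of Hmgb1 was inside the gene, from 149050858 to 149051061, at a percentile of 1.69 and 176 bp from a WT peak. The WT-only peaks lay outside it. They stood at 149045161 to 149045374 (12.1), 149045675 to 149046152 (6.18), 149062934 to 149063095 (2.46) and 149088255 to 149088355 (1.16). With the gene span alone in place of the window, the 1 KO-only peak was left and the balance of Hmgb1 turned from 3 more WT-only peaks to 1 more KO-only peak. Further shared peaks lay at 149006024 to 149007681 in KO (86.0) with 91.6 in WT, inside Gm15411, and with the summit at 149031673 in KO (84.8) and at 149031542 in WT (89.2). Another, with its summit 26.1 kb upstream of the start site, stood at 87.4 in KO and 86.1 in WT.

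Hmgb2, on chromosome 8, encodes the HMG-box protein typical of proliferating cells. Its window held 12 KO peaks, 1 of them KO-only, and 14 WT peaks, 3 of them WT-only. The start-site peak ran from 57510558 to 57512367 in KO (percentile 97.1) and from 57510110 to 57512376 in WT (98.4), with summits 131 bp upstream in KO and 148 bp upstream in WT. The strongest peak of the window spanned the start site of the neighbour Sap30, a subunit of the Sin3 corepressor complex, at 99.1 in KO and 99.3 in WT. It was also the strongest KO and the strongest WT peak of all 8 windows. Another strong shared peak lay in Galnt7, at 84.6 in KO and 84.4 in WT.

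The KO-only peak of the Hmgb2 window, from 57468743 to 57469004 (10.3), lay 43.0 kb upstream, inside Scrg1. The WT-only peaks were at 57505687 to 57505836 (9.96), at 57512789 to 57513110 inside Hmgb2 (1.75) and at 57519493 to 57519914 (29.6). Downstream of the gene, 1 WT peak from 57516479 to 57519024 (86.4) overlapped a pair of KO peaks, from 57516188 to 57516651 (10.1) and from 57517284 to 57518678 (67.7). The 10 Mb block around Hmgb2 had a KO peak number of 78.0% of the WT number, the lowest of the 8 blocks, and the window itself had 85.7%.

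The 2 HMGB windows together held 20 KO peaks, 2 of them KO-only (10.0%, interval 1.23% to 31.7%), and 26 WT peaks, 7 of them WT-only (26.9%, 11.6% to 47.8%). Both intervals hold the share of the whole list.

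Shared peaks of the 8 genes matched closely in place. In the windows, 64 peaks had exactly 1 partner in each list, 25 around HMGN, 24 around HMGA and 15 around HMGB genes. Their KO and WT summits were a median of 12 bp apart, against 11 bp over all 75840 such pairs, and 7 pairs had identical summits. The peak was wider in KO in 32 pairs, wider in WT in 30 and equal in 2. The KO percentile was below the WT percentile in 50 of the 64 pairs (78.1%), against 59.3% of all pairs. Percentiles of lists of unequal length are not a common scale, so this share describes ranks only.

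Ranks differed least among strong pairs, for which the class limits also leave less room for a difference. Where both percentiles were 80 or above, in 22 pairs, KO minus WT ran from -5.65 to 1.24 percentile points. Where both were under 50, in 25 pairs, it ran from -44.2 to 14.0. The extreme was a shared peak in the Hmgn3 window, 71.4 kb from the gene end described above, with its summit at 83075955 in both lists, which was 160 bp wide in KO (percentile 0.454) and 597 bp wide in WT (44.7). The opposite extreme was inside Hmga2, with a summit at 120430606 in KO (50.3) and at 120430635 in WT (10.9).

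**Figure D4:**
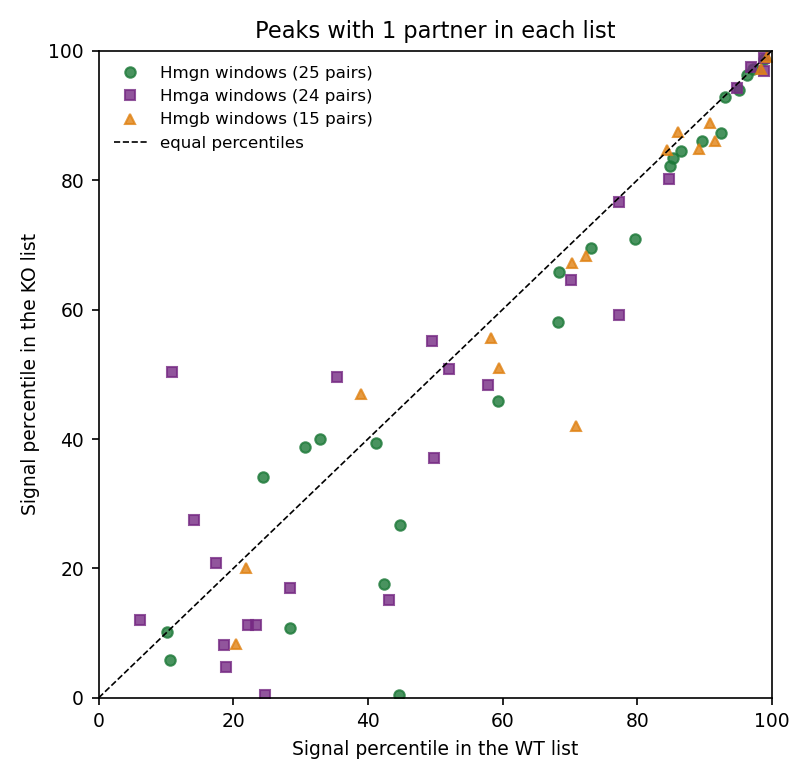
Signal percentile in the KO list against that in the WT list for the 64 peak pairs with 1 partner each, by subfamily. Points close to the dashed line of equal percentiles are frequent above 80, and 50 of the 64 points lie below it.

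The start-site peaks can be put in order within each list, with Hmgn5 first and Hmga1 last in both. In KO it ran from Hmgn5 (98.6), Hmgn3 at its gene end (97.2), Hmgb2 (97.1), Hmga2 (97.1), Hmgn1 (93.9), Hmgb1 (88.8) and Hmgn2 (87.3) down to Hmga1 (80.2). In WT it ran from Hmgn5 (98.9), Hmga2 (98.7), Hmgb2 (98.4), Hmgn3 (97.3), Hmgn1 (95.1), Hmgn2 (92.5) and Hmgb1 (90.9) down to Hmga1 (84.8). Peaks over a start site had median percentiles of 90.8 in KO, over 9060 genes, and 92.1 in WT, over 9200 genes. Neighbours in the order cannot be separated, since no spread is known.

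The labelled cell type was checked by the start sites of marker genes. Of 12 dermal fibroblast markers, 11 were open in both lists, all but Lum. Of 8 keratinocyte and 5 muscle markers none was open in either list. Of 7 leukocyte markers 3, Csf1r, Cd68 and Spi1, were open in both, and Ptprc, Cd3e and Itgam were open in neither. The part of such cells in the window counts was not tested. Of 5 endothelial markers 2, and of 7 melanocyte and Schwann cell markers 3, were open in both. Over the whole lists KO peaks covered 66.8 Mb and WT peaks 71.0 Mb, and whether this difference bears on the windows was not tested.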

How the data were processed

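ATAC-seq peaks of Lap2alpha KO (3 libraries) and WT (3 libraries) mouse dermal fibroblasts were analysed as 2 deposited lists, 1 per genotype. The submitters' processing notes name Bowtie2 2.5.1, Genrich, deepTools 3.5.1 and build GRCm38. Settings, any shift for the Tn5 cut and how the libraries were combined are not given in the sources used here. For each peak the authors deposited a score (at most 1000), a signal of at least 200 that grows with peak length, the −log10 of the summit p-value and q-value, and the summit position. The score and the q-value were not used. Lists hold no read totals, so depth is unknown.

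Gene spans, start sites and promoters came from RefSeq GRCm38.p6. Peaks were placed by summit, matched by an overlap of at least 1 bp, and ranked by signal within their own list. Exact Clopper-Pearson 95% intervals were computed with scipy 1.17.1. Python 3.11.15, numpy 2.4.6 and pandas 2.3.3 were used, and the matching was tested on simulated lists and checked against bedtools 2.31.1. Alternatives were windows of 0, 10 and 100 kb, a stricter summit threshold (−log10 p of at least 9.73), the upper 50% of each list, lists of equal length, a reciprocal overlap of 50%, a gap of 1 kb, 250 bp around start sites and other rankings.

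The genes and gene lists were chosen with earlier results of these data known. Named were all 8 genes, each with its start-site peak, its genotype-only peaks (at most the 4 strongest per list), its 3 strongest shared peaks and the neighbours these touch. From the other lists, genes open in 1 list only and the 3 per direction with the largest difference, with ties, were named. Protein sequences were not used here, and the result of a single marker gene is not reported here.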

Additional observations from a re-analysis of the deposited data

How the results depend on the processing

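The share of KO-only peaks in the windows (5.75%) became 27.6% with a reciprocal overlap of 50% and 0% in the upper 50% of each list, where the whole KO list gave 28.1% and 2.41%. The share of WT-only peaks (28.6%) became 43.8% with the reciprocal overlap, 19.6% where no KO peak lay within 1 kb, 11.9% in lists of equal length, 9.52% with the stricter summit threshold and 2.17% in the upper 50%. The whole WT list gave 33.6%, 15.6%, 15.8%, 17.6% and 3.49% under the same settings, so the windows were above it under the first pair of settings and below it under the other 3. Except with the reciprocal overlap, the WT-only interval of the windows held the whole-list share under each of these settings. Peaks were matched again in the lists of equal length and with the stricter threshold. With the gene span alone, 13 of 35 WT peaks were WT-only (37.1%, interval 21.5% to 55.1%), above the 20.4% of the whole WT list. Of these 13 peaks, 12 lay in Hmga2. Of 34 values for these shares, peak numbers, open start sites and median percentiles under an alternative, 27 stayed within their interval or, for counts of genes, within 1.5 times. The 7 that moved were all shares of genotype-only peaks, mostly WT-only, so these shares were the least stable values. The number of genes with more WT-only peaks, 7 of 8, was 2 with the gene span alone, 3 with the stricter threshold, 3 in lists of equal length and 1 in the upper 50%. One gene turned direction: Hmgb1, from -3 KO-only minus WT-only peaks to 1 with the gene span alone. All 8 genes were open in both lists with 250 bp around the start site, with the stricter threshold and in the upper 50%. No paired analysis was possible because each list holds the 3 libraries of a genotype together, and for the same reason no library could be left out. Depth is unknown for both lists, and its part in these values was not tested.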

Other observations

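Peaks were counted in the same way around close relatives of the 8 genes. Hmgb3, the X-linked HMGB gene, had 2 KO and 2 WT peaks, all shared, and an open start site in both lists. Hmga1b, a second HMGA1 gene of the mouse annotation, had 23 KO peaks with 1 KO-only and 26 WT peaks with 4 WT-only. Its KO-only minus WT-only difference of -3 equalled that of Hmga1. Hmgb4, known from the testis, had no peak in either list. How the authors treated reads that align to several near-identical copies is not given in the sources used here. Of 16 retrocopies named after the 8 genes, 15 held no peak in either list. The exception was Hmga2-ps1 on chromosome 1, which lay under 2 KO peaks, from 176834708 to 176835286 (percentile 71.7) and from 176835436 to 176836274 (73.0), and under 1 WT peak, from 176833994 to 176836512 (96.1).

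Of 60 other genes for HMG-box, linker histone, cohesin, condensin and related chromatin proteins, 52 were open in both lists (86.7%) and 7 in neither. One was open in KO only, the linker histone gene H1f10, through a KO-only peak from 87981581 to 87982527 on chromosome 6 (percentile 56.7). Over all protein-coding genes, 55.0% were open in both lists, 41.9% in neither and 1.08% in KO only. With each peak counted once where windows overlap, the 60 windows held 66 KO-only of 637 KO peaks (10.4%) and 106 WT-only of 670 WT peaks (15.8%), both below the whole-list shares of 13.4% and 20.4%. There were more KO-only peaks around 17 genes, more WT-only around 26 and equal numbers around 17. Over all genes, 22.9% had more KO-only, 46.7% more WT-only and 30.4% equal numbers. The Wnt effector gene Tcf7l2 had 0 KO-only against 10 WT-only peaks. Tox2, an HMG-box gene, had 0 KO peaks and 8 WT peaks, all WT-only. In the other direction Hmgxb3 had 5 KO-only and 0 WT-only and the condensin gene Ncapd2 4 KO-only and 0 WT-only. The Hmgxb3 window overlaps those of its neighbours Csf1r (7 KO-only and 0 WT-only) and Pdgfrb (10 KO-only and 0 WT-only).

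Of 14 genes linked to these proteins by textbook knowledge, 12 were open in both lists (85.7%). Of all protein-coding genes, 55.0% were open in both lists and 2.01% in WT only. Lin28b, an inhibitor of the let-7 microRNAs that target Hmga2, was open in WT only, through a WT-only peak from 45469581 to 45470350 on chromosome 10 (percentile 46.7). Ager, the gene of the HMGB1 receptor RAGE, was open in neither. Tlr4, another HMGB1 receptor gene, had 0 KO-only peaks against 6 WT-only peaks. Cxcl12, whose chemokine forms a complex with HMGB1, had 5 KO-only against 2 WT-only peaks. Its difference of 3 was tied with those of Tcf7l1 (6 against 3) and Ncapg2 (3 against 0) among the other chromatin genes. Over the 14 windows 18 of 163 KO peaks were KO-only (11.0%) and 37 of 181 WT peaks were WT-only (20.4%). The whole-list shares were 13.4% in KO and 20.4% in WT, so the WT-only share was that of the whole list.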
